A study of Sus scrofa with 9 samples.

Results

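KIAA1211, TFCP2L1 and RHPN1 are 3 genes of 29837 in a table of liver read counts from pigs with and without a mutated insulin transgene. They were chosen by their counts, which were higher in every transgenic library than in every wild type library, among genes little known in liver. Their levels in the groups are given as a description with no test. All 3 were found in the table by their symbols, and all 3 passed the filter on low counts that kept 14100 genes for testing.

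The 4 MIDY pigs carried a C94Y mutant insulin transgene, and the 5 wild type (WT) pigs did not. The name MIDY abbreviates diabetes of youth that a mutant INS gene induces, in which misfolded insulin harms the cells that make it. All 9 animals were female and 2 years old, were housed under controlled conditions and were fed daily. Diabetic pigs received short and long acting insulin by day, so transgene, diabetes and insulin treatment cannot be told apart. The transgene's promoter, litter, pen and sampling day were not used here.

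The 3 proteins belong to different parts of cell biology. KIAA1211, also known as CRACD, binds the capping protein that sits on the fast-growing end of actin filaments and inhibits it, which lets filaments grow in epithelial cells. TFCP2L1 is a transcription factor of the CP2 family, best known from the collecting duct of the kidney, from gland ducts and from naive pluripotent stem cells. RHPN1, or rhophilin-1, is a scaffold protein with a BRO1 and a PDZ domain, which bind other proteins, and has been studied in the filtering cells of the kidney and in sperm.

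The libraries held 14115415 to 19533463 counts each. Levels are given as CPM, counts scaled to a common library size of 1e+06 after TMM scaling, a correction for differences in RNA composition. A log2 fold change is MIDY minus WT from edgeR's quasi-likelihood fit over the 14100 genes, with its standard error (SE). A gene was called at a Benjamini-Hochberg adjusted p below 0.05 in that fit. There were 115 genes called higher and 50 called lower. On the first principal component of log2 CPM, which held 26.8% of the variance, the MIDY libraries lay between -38.4 and -11.3 and 4 WT libraries between 21.0 and 31.9, with WT replicate 1 apart from both at -1.04. Counts of 9 hepatocyte markers, ALB and APOA1 among them, summed to 126431 to 183817 CPM in WT and 151580 to 183083 CPM in MIDY, and 0 of the 9 were called (0 at an unadjusted p below 0.05; 0 called by DESeq2 and 0 by limma voom).

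KIAA1211 had at most 17 reads in any WT liver and at least 30 in every MIDY liver. Its counts in WT replicates 1 to 5 were 6, 4, 4, 17 and 6, and in MIDY replicates 1 to 4 they were 30, 76, 47 and 60. As levels these were 0.417, 0.200, 0.276, 1.07 and 0.339 CPM in WT and 1.87, 5.27, 2.48 and 3.15 CPM in MIDY. WT replicate 4 stood above the other WT libraries, and MIDY replicate 2 was the highest of all 9. The groups did not overlap, as was required for the choice; 3.72% of all tested genes were higher in MIDY without overlap and 0.816% were called higher. The mean level was 0.461 ± 0.351 CPM (SD, n = 5) in WT and 3.19 ± 1.48 CPM (SD, n = 4) in MIDY. The fitted log2 fold change was 2.78 ± 0.46 (SE), a 6.89-fold higher level in MIDY. The gene lies on chromosome 8 of Sscrofa11.1, from 55336363 to 55600931, and RefSeq lists 10 transcripts for it, which the gene-level counts cannot tell apart.

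TFCP2L1 had low counts in WT and was higher in every MIDY library, by very different amounts. Its counts were 11, 33, 16, 13 and 24 in WT replicates 1 to 5, or 0.765, 1.65, 1.10, 0.820 and 1.36 CPM. In MIDY replicates 1 to 4 they were 71, 219, 54 and 69, or 4.43, 15.2, 2.84 and 3.62 CPM. MIDY replicate 2 alone held more TFCP2L1 reads than the other MIDY libraries together. The mean level was 1.14 ± 0.37 CPM (SD, n = 5) in WT and 6.52 ± 5.82 CPM (SD, n = 4) in MIDY, and the median level in MIDY was 4.02 CPM. The log2 fold change was 2.48 ± 0.50 (SE), or 5.57-fold. Without MIDY replicate 2 it was 1.65 ± 0.30 (SE), or 3.14-fold. TFCP2L1 lies on chromosome 15, from 30072142 to 30131810, with 1 RefSeq transcript.

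RHPN1 had the smallest difference of the 3. Its counts were 15, 16, 8, 18 and 10 in WT replicates 1 to 5, or 1.04, 0.799, 0.552, 1.13 and 0.565 CPM. In MIDY replicates 1 to 4 they were 33, 27, 48 and 79, or 2.06, 1.87, 2.53 and 4.14 CPM. MIDY replicate 4 was the highest, while MIDY replicate 2, the highest library for KIAA1211 and TFCP2L1, was the lowest MIDY library for RHPN1. The mean level was 0.819 ± 0.267 CPM (SD, n = 5) in WT and 2.65 ± 1.03 CPM (SD, n = 4) in MIDY. The log2 fold change was 1.70 ± 0.33 (SE), or 3.24-fold. RHPN1 lies on chromosome 4, from 1123098 to 1133030, with 1 RefSeq transcript.

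**Figure D1:**
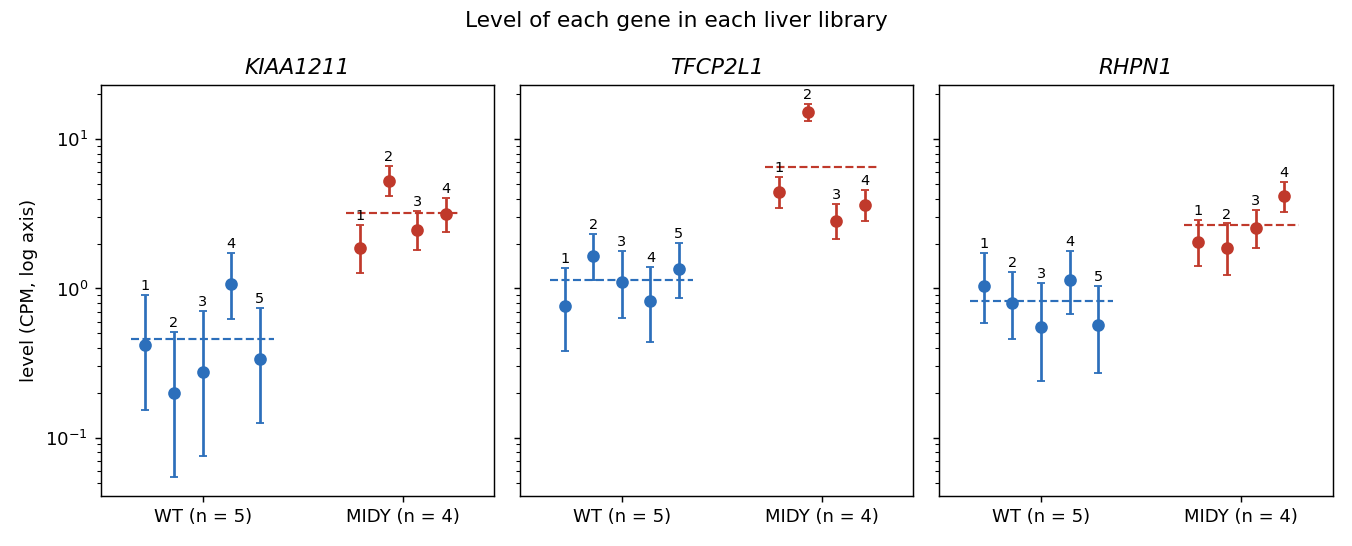
Level of KIAA1211, TFCP2L1 and RHPN1 in CPM on a log axis in the 5 WT (blue) and 4 MIDY (red) libraries, numbered by replicate. Bars are exact Poisson 95% intervals of the counts, dashed lines are group means, and TFCP2L1 in MIDY replicate 2 sits at 15.2 CPM, above the 2.84 to 4.43 CPM of the other MIDY libraries.

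The gap between the groups was narrow at its closest point. The lowest MIDY library exceeded the highest WT library 1.75 times for KIAA1211, 1.73 times for TFCP2L1 and 1.65 times for RHPN1. Exact Poisson 95% intervals, which cover counting error only, overlapped for each of these closest pairs. For KIAA1211 they were 0.624 to 1.72 CPM in WT replicate 4 and 1.26 to 2.67 CPM in MIDY replicate 1. For TFCP2L1 they were 1.13 to 2.32 CPM in WT replicate 2 and 2.14 to 3.71 CPM in MIDY replicate 3. For RHPN1 they were 0.673 to 1.79 CPM in WT replicate 4 and 1.23 to 2.73 CPM in MIDY replicate 2. Summed over libraries, the totals were 213 MIDY against 37 WT reads for KIAA1211, 413 against 97 for TFCP2L1 and 187 against 67 for RHPN1.

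The 3 genes also differed in how much they varied within a group. The biological coefficient of variation, the spread between animals after counting error is taken off, was estimated at 48.7% for TFCP2L1, where genes of like counts had 27.1%. It was 41.8% against 33.0% for KIAA1211 and 30.7% against 33.1% for RHPN1. The highest MIDY library exceeded the lowest 5.34 times for TFCP2L1, 2.82 times for KIAA1211 and 2.21 times for RHPN1. Within WT the spread was widest for KIAA1211, at 5.36 times, against 2.16 times for TFCP2L1 and 2.06 times for RHPN1.

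Under every one of 18 alternative settings the level of each gene stayed higher in MIDY, a direction fixed by choosing genes without overlap. The log2 fold change ran from 2.44 to 3.36 for KIAA1211, from 1.65 to 2.73 for TFCP2L1 and from 1.39 to 1.84 for RHPN1. The highest value for KIAA1211 came without WT replicate 4, and the lowest without MIDY replicate 2. The lowest value for RHPN1 came without MIDY replicate 4. Only the value for TFCP2L1 without MIDY replicate 2 changed a fold by more than 1.5 times.

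**Figure D2:**
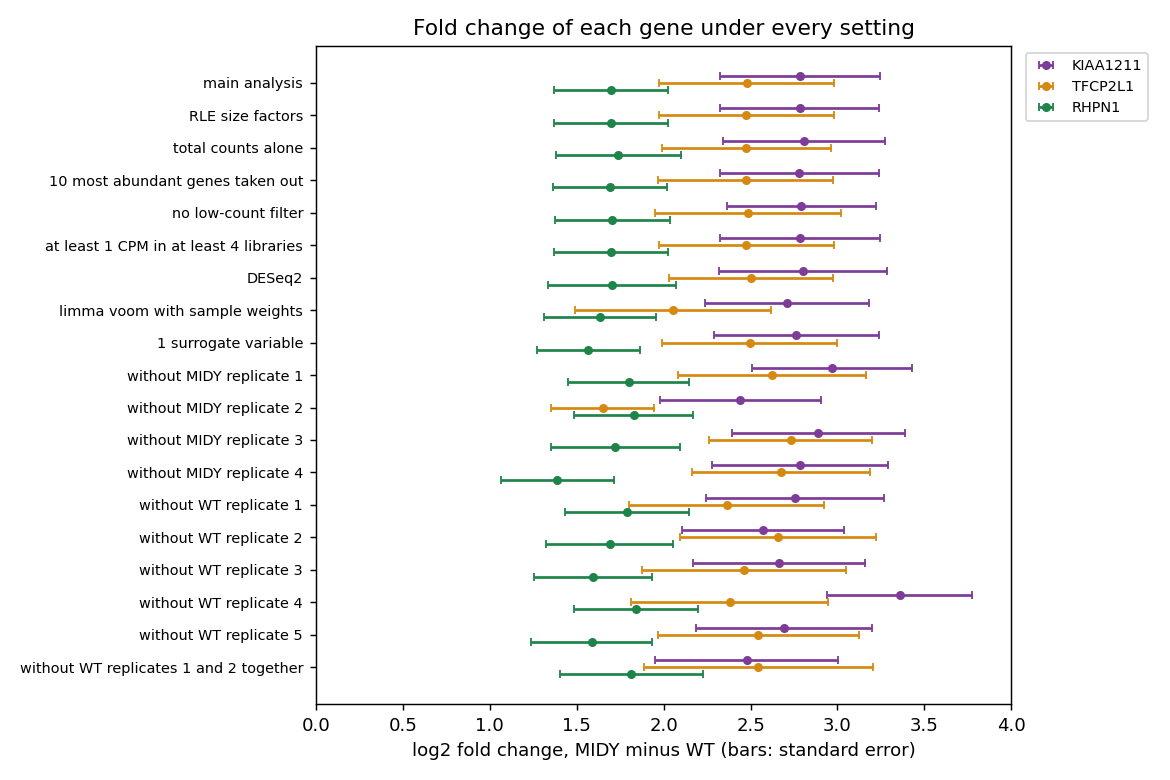
Log2 fold change (MIDY minus WT, bars: SE) of KIAA1211, TFCP2L1 and RHPN1 in the main analysis and under 18 other settings. TFCP2L1 drops to 1.65 without MIDY replicate 2, next to 1.83 for RHPN1 in the same fit.

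As a description of the values the choice rests on, other genes that were called higher without overlap, with a mean of at least 1 CPM, had log2 fold changes like theirs. Just above KIAA1211 stood the uncharacterized LOC106505250 (log2 fold change 2.81) and BMP8B, a growth factor of the BMP family (2.82). Just below TFCP2L1 came SDS, a serine and threonine deaminase (2.24), and SFXN3, a sideroflexin of mitochondria (2.18). RHPN1 lay between GPT2, the mitochondrial alanine aminotransferase (1.74), and LOC102161293 (1.66), with LOC110262053 (2.11) and MAG, the myelin-associated glycoprotein (1.58), one place further out.

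None of the tested relatives of TFCP2L1 was called. Its closest relatives, TFCP2 and UBP1, are broadly expressed transcription factors of the CP2 branch, and the GRHL genes encode the grainyhead branch, which acts in surface epithelia. TFCP2 had 17.1 ± 2.18 CPM in WT (SD, n = 5) and 18.6 ± 2.47 CPM in MIDY (SD, n = 4), with a log2 fold change of 0.12 ± 0.13 (SE; edgeR adjusted p = 0.706). UBP1 had 35.0 to 39.9 CPM in WT and 33.0 to 41.5 CPM in MIDY (-0.03 ± 0.10 log2, SE; edgeR adjusted p = 0.916). Levels of both overlapped between the groups.

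GRHL2 and GRHL3 had few reads and scattered widely. GRHL2 had 0.973, 2.10, 0.759, 3.22 and 2.03 CPM in WT replicates 1 to 5 and 0.936, 0.972, 1.05 and 1.68 CPM in MIDY replicates 1 to 4 (-0.64 ± 0.41 log2, SE; edgeR adjusted p = 0.466). GRHL3 had 1.32, 0.0999, 0.0690, 0.315 and 0.452 CPM in WT and 0.686, 0.972, 0.948 and 0.734 CPM in MIDY (0.92 ± 0.62 log2, SE; edgeR adjusted p = 0.500). WT replicate 1 was the highest library of all for GRHL3, and the other WT libraries were below every MIDY library. GRHL1 had 45 reads over the 9 libraries and was not tested. Of the 4 tested relatives 0 were called (0 at an unadjusted p below 0.05; 0 called by DESeq2 and 0 by limma voom), with a median log2 fold change of 0.04, where 1.17% of all tested genes were called and their median was -0.00.

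Genes that work with TFCP2L1 in pluripotent cells had few reads or were not called, apart from TBX3. Of 14 such genes 7 could be tested, and PRDM14 and POU5F1 had no reads in any library. The core factors NANOG, SALL4, SOX2 and ESRRB had 22, 17, 2 and 1 reads over the 9 libraries. TBX3, a T-box factor that is also made by liver cells near the central vein, was the 1 gene of the 7 that was called, where 0.816% of all tested genes were called higher. It had 20.7, 22.6, 21.1, 23.1 and 13.2 CPM in WT replicates 1 to 5 and 33.6, 51.7, 33.7 and 34.5 CPM in MIDY replicates 1 to 4. Its groups did not overlap, and MIDY replicate 2 was again the highest library. In the fit TBX3 rose by a log2 value of 0.93 ± 0.18 (SE; edgeR adjusted p = 0.0310).

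The TBX3 call was lost without MIDY replicate 2, MIDY replicate 3, WT replicate 2, WT replicate 3 or WT replicate 4 (edgeR adjusted p = 0.0846, 0.0619, 0.0574, 0.0704 and 0.0522). STAT3, IL6ST and TFE3, which carry the cytokine signal that acts on TFCP2L1 in stem cells or act beside it, had log2 fold changes near 0, at 0.09, 0.15 and 0.01 (edgeR adjusted p = 0.849, 0.579 and 0.977). KLF2 and KLF4 had -0.48 ± 0.22 and -0.61 ± 0.32 (log2 ± SE; edgeR adjusted p = 0.301 and 0.374).

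The genes that go with TFCP2L1 in the kidney were mostly too low to be tested. Of 20 collecting duct genes 5 could be tested, and AQP2, CDH16, ELF5, SLC26A4 and RHCG had no reads at all. The proton pump subunit ATP6V1B1, the transcription factor FOXI1 and the steroid enzyme HSD11B2 had 74, 4 and 10 reads over the 9 libraries. Of the 5 tested genes 0 were called (0 at an unadjusted p below 0.05 in edgeR; 0 called by DESeq2 and 0 by limma voom). Among them SCNN1B, a subunit of the epithelial sodium channel, had 3.13, 1.55, 0.276, 0.126 and 0.113 CPM in WT replicates 1 to 5 and 4.74, 4.16, 1.32 and 2.20 CPM in MIDY replicates 1 to 4 (1.58 ± 0.83 log2, SE; edgeR adjusted p = 0.392). WT replicates 1 and 2 lay within the MIDY range and the other WT libraries far below it. RHBG, an ammonia channel found in liver and kidney, had 11.4 ± 6.44 CPM in WT (SD, n = 5) and 19.1 ± 7.87 CPM in MIDY (SD, n = 4; edgeR adjusted p = 0.435).

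The paralog of RHPN1 had the opposite sign. RHPN2, the other rhophilin, had 3.82, 8.09, 7.94, 7.69 and 6.04 CPM in WT replicates 1 to 5 and 2.68, 1.53, 4.37 and 4.40 CPM in MIDY replicates 1 to 4. Only WT replicate 1 lay within the MIDY range. The log2 fold change of RHPN2 was -1.03 ± 0.31 (SE) and was not called by edgeR (adjusted p = 0.130), whereas DESeq2 called it (adjusted p = 0.0297). The difference between the responses of the rhophilins was not tested, since RHPN1 was chosen for its own.

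Actin regulators around KIAA1211 were called lower or not at all. Its paralog KIAA1211L had 20 reads over the 9 libraries, at most 4 in any, and was not tested. The capping protein that KIAA1211 inhibits is built from an alpha and a beta chain. Its genes CAPZA1, CAPZA2 and CAPZB had log2 fold changes of -0.10 ± 0.10, -0.18 ± 0.13 and -0.10 ± 0.13 (SE; edgeR adjusted p = 0.679, 0.508 and 0.754). Among regulators of capping protein, CD2AP, CARMIL1 and MTPN had 0.09, -0.06 and 0.07, and SH3KBP1 and RCSD1 had -0.38 and -0.29 (log2; edgeR adjusted p = 0.700, 0.894, 0.797, 0.353 and 0.295).

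Of 22 tested genes of actin capping besides KIAA1211, 0 were called higher and 2 lower, where 0.816% and 0.355% of all tested genes were, and their median log2 fold change was -0.16. At an unadjusted p below 0.05 there were 5, with AVIL, an actin-severing relative of villin, above 0 (0.27; edgeR adjusted p = 0.254) and VIL1, ADD3, CAPG and RCSD1 below. ADD3, an adducin that caps filaments at the membrane skeleton, had 50.8, 56.3, 65.6, 55.0 and 53.2 CPM in WT replicates 1 to 5 and 37.4, 35.9, 37.7 and 43.1 CPM in MIDY replicates 1 to 4. ADD3 fell by a log2 value of 0.54 ± 0.10 (SE; edgeR adjusted p = 0.0303). VIL1, the villin of microvilli, had 5.08, 10.3, 6.0, 8.89 and 8.47 CPM in WT and 2.18, 3.05, 2.32 and 4.09 CPM in MIDY, and fell by a log2 value of 1.41 ± 0.25 (SE; edgeR adjusted p = 0.0234). In each of them the groups did not overlap.

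ADD3 kept its call without MIDY replicate 4 or WT replicate 1 and lost it without any other single library (edgeR adjusted p = 0.0540 to 0.102). The call of VIL1 held in 3 of 9 fits with 1 library left out, namely MIDY replicate 4, WT replicate 1 and WT replicate 3, and was lost in the others (edgeR adjusted p = 0.0510 to 0.0714). CAPG, which caps filaments in macrophages and other cells, had 2.25 ± 0.33 CPM in WT (SD, n = 5) and 1.41 ± 0.24 CPM in MIDY (SD, n = 4), without overlap, and was not called (edgeR adjusted p = 0.185).

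**Figure D3:**
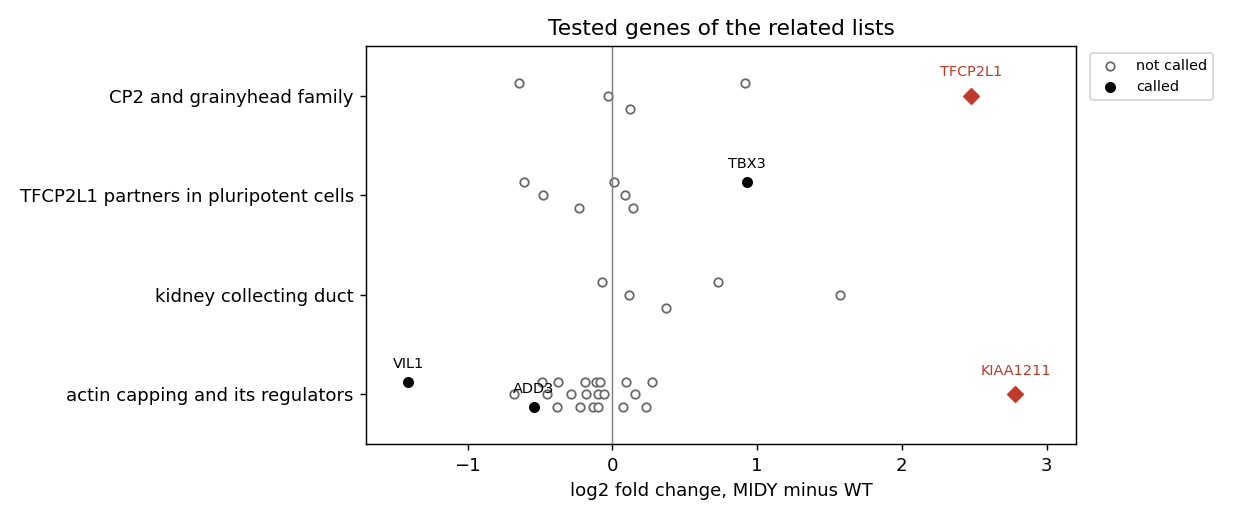
Log2 fold change (MIDY minus WT) of the tested genes in 4 lists related to TFCP2L1 and KIAA1211, shown as red diamonds; filled circles are called genes and open circles genes that were not. TBX3 is the 1 called gene on the higher side, and ADD3 and VIL1 lie on the lower side.

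Genes beside the 3 on the chromosomes had log2 fold changes between -0.38 and 0.63. RefSeq places 35 gene models within 200 kb of them, of which 21 were tested and 0 called by edgeR (1 at an unadjusted p below 0.05; 1 called by DESeq2 and 0 by limma voom). With 1.17% of all tested genes called, a count of 0 among 21 is near the overall share. Their median log2 fold change was 0.04. CEP135, a centriole gene on one side of KIAA1211, and AASDH on the other, at 3463 bases, had log2 fold changes of 0.12 ± 0.21 and -0.01 ± 0.10 (SE; edgeR adjusted p = 0.834 and 0.978). CLASP1, a microtubule gene 29415 bases from TFCP2L1, had 0.04 ± 0.10, and the Hedgehog factor GLI2, 180718 bases away on the other side, had -0.38 ± 0.31 (SE; edgeR adjusted p = 0.905 and 0.586).

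RHPN1 lies in the most crowded of these stretches, with 13 tested neighbours. TOP1MT, the mitochondrial topoisomerase gene that begins 1149 bases beyond it, had 0.550 ± 0.157 CPM in WT (SD, n = 5) and 0.733 ± 0.138 CPM in MIDY (SD, n = 4; 0.42 ± 0.35 log2, SE; edgeR adjusted p = 0.593). ZC3H3, the nearest tested gene on the other side, had 0.12 ± 0.19 (log2 ± SE; edgeR adjusted p = 0.809). GSDMD, the gasdermin that opens pores in dying cells, 121134 bases away, had 10.5, 10.1, 7.39, 9.58 and 12.9 CPM in WT replicates 1 to 5 and 15.5, 15.8, 13.6 and 17.7 CPM in MIDY replicates 1 to 4. The groups did not overlap for GSDMD, which was not called by edgeR (0.63 ± 0.15 log2, SE; adjusted p = 0.0712) but was by DESeq2 (adjusted p = 0.0115); it is named here after its values were seen.

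Gene models that overlap can share reads. No model overlapped TFCP2L1 or RHPN1. For KIAA1211 there were 2, both long non-coding RNAs. LOC110262105 had no reads, and LOC110262106, at the end of the gene, had 2, 12, 0, 3 and 5 reads in WT replicates 1 to 5 and 10, 8, 7 and 11 in MIDY replicates 1 to 4, too few to be tested. Reads within both KIAA1211 and LOC110262106 cannot be assigned without the strand setting, which is not given in the sources used here.

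**Figure D4:**
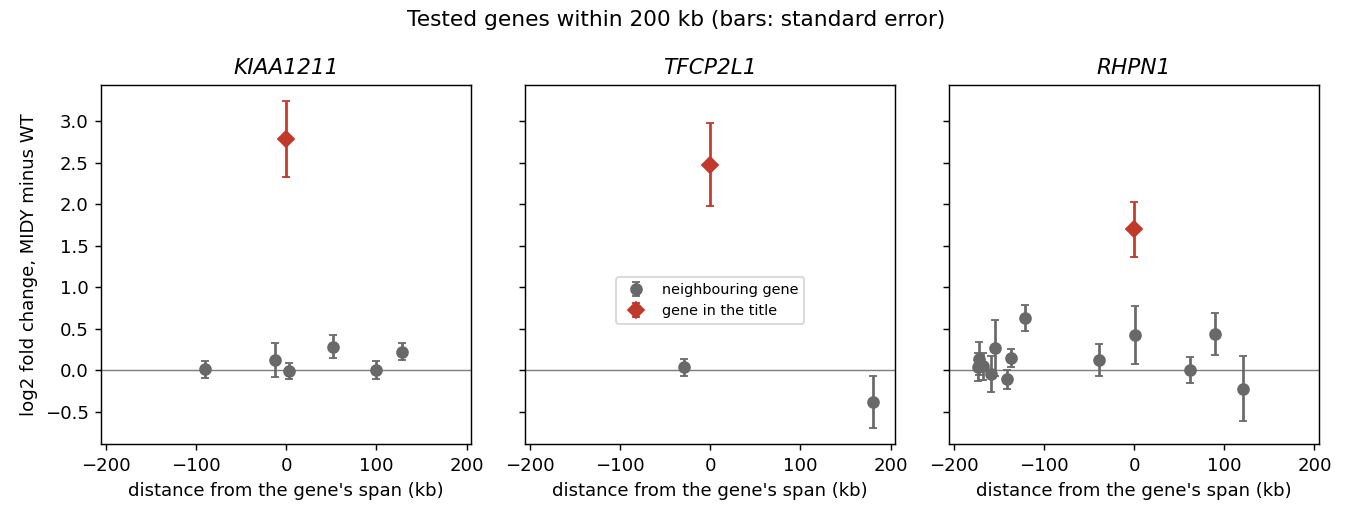
Log2 fold change (MIDY minus WT, bars: SE) of tested genes within 200 kb, by distance in kb from the span of KIAA1211, TFCP2L1 or RHPN1 (red diamonds). The 21 neighbours lie between -0.38 (GLI2) and 0.63 (GSDMD).

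The libraries did not order the 3 genes alike. In MIDY the order from high to low was replicates 2, 4, 3 and 1 for KIAA1211, replicates 2, 1, 4 and 3 for TFCP2L1 and replicates 4, 3, 1 and 2 for RHPN1. In WT, replicate 4 was the highest for KIAA1211 and RHPN1 and replicate 2 for TFCP2L1. Likeness of pattern was measured as the root mean square difference of log2 CPM over the 9 libraries, each gene centred on its own mean, so that 0 is identical. All these values share libraries, depth and the MIDY to WT step, and they are a description.

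The difference was 0.79 between KIAA1211 and RHPN1, 0.85 between KIAA1211 and TFCP2L1 and 0.996 between TFCP2L1 and RHPN1. For RHPN1 the median tested gene lay at 0.91, and 10121 of 14100 genes lay closer to it than TFCP2L1 did. For KIAA1211, where the median gene lay at 1.44, 27 genes lay closer to it than TFCP2L1 did and 18 closer than RHPN1 did. For TFCP2L1 the counts were 63 genes closer than KIAA1211 and 291 closer than RHPN1, and 2284 genes lay closer to RHPN1 than KIAA1211 did. The step between the groups, for which all 3 were chosen, enters these distances.

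The gene most like KIAA1211 was BMP8A, at 0.35, a growth factor of the same family as BMP8B. Whether reads of BMP8A and BMP8B were kept apart in the counts was not tested. BMP8A had 0.209, 0.15, 0.207, 0.567 and 0.169 CPM in WT replicates 1 to 5 and 1.56, 3.12, 1.58 and 1.10 CPM in MIDY replicates 1 to 4. It shared with KIAA1211 the high values in WT replicate 4 and MIDY replicate 2. Next came LOC110262053 (0.60), BMP8B (0.63), LOC110260953 (0.64) and P2RY4, a nucleotide receptor (0.68).

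The gene most like TFCP2L1 was SDS, at 0.48, with 59.6, 50.4, 28.6, 46.7 and 46.0 CPM in WT replicates 1 to 5 and 227, 394, 115 and 139 CPM in MIDY replicates 1 to 4. The MIDY libraries fell in the same order for both genes, and the WT libraries did not. The next were HDAC4, a histone deacetylase that responds to glucagon and fasting in liver (0.58), MAG (0.64), the mitochondrial carrier SLC25A47 (0.64) and OAT, the ornithine aminotransferase (0.65). HDAC4 had 5.70 to 7.69 CPM in WT and 11.5 to 33.1 CPM in MIDY, again with replicate 2 the highest.

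The genes nearest to RHPN1 were LOC102157437 (0.37), DNHD1, a dynein-like gene (0.40), the Notch ligand DLL3 (0.40), CCDC138 (0.43) and LOC102167599 (0.44). The long non-coding RNA LOC102157437 had 0.276 to 0.946 CPM in WT and 1.05 to 2.46 CPM in MIDY, with MIDY replicate 4 the highest, as for RHPN1.

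**Figure D5:**
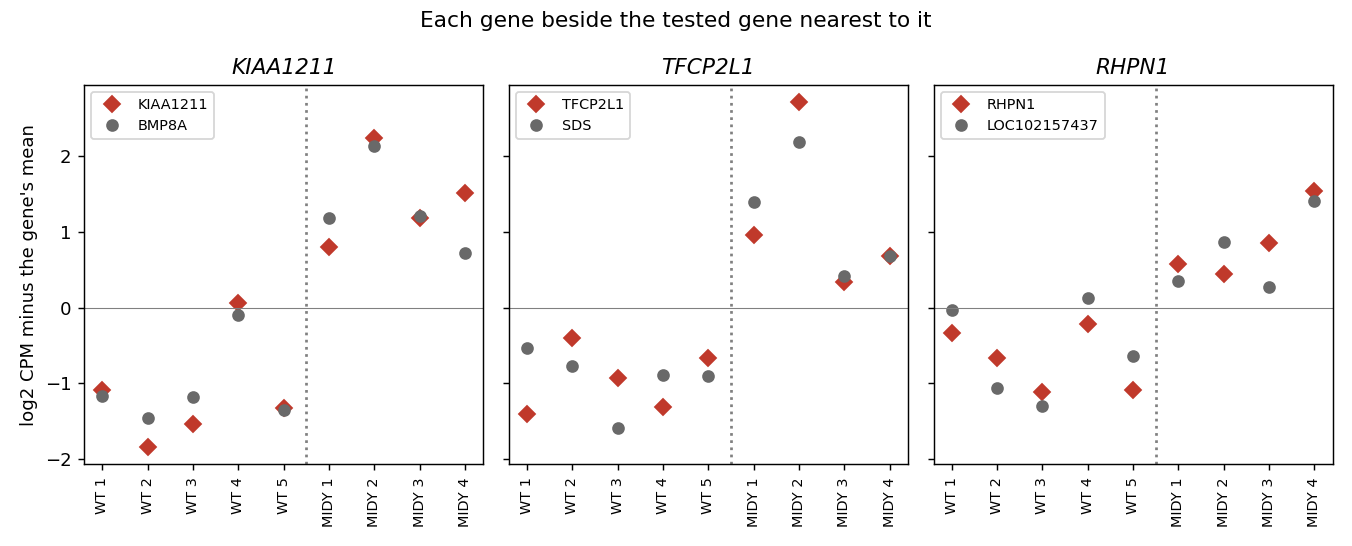
Log2 CPM minus the gene's own mean in each library for KIAA1211, TFCP2L1 and RHPN1 (red diamonds) and for the tested gene with the smallest root mean square difference (grey circles: BMP8A, SDS and LOC102157437). BMP8A follows KIAA1211 at 0.35, and both are high in WT replicate 4 and MIDY replicate 2.

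In whole liver a lower level of a transcript can mean fewer cells of a type or less RNA per cell, which cannot be told apart. TFCP2L1 is known from duct epithelium, so markers of bile ducts were read beside it. The 12 biliary markers summed to 481 to 582 CPM in WT and 456 to 581 CPM in MIDY, and 0 of 11 tested were called (4 at an unadjusted p below 0.05; 0 called by DESeq2 and 0 by limma voom). Most of the sum was CDH1, the cadherin of epithelia that hepatocytes also make, with a mean of 433 CPM in WT and 477 CPM in MIDY. The keratins of duct cells, KRT7 and KRT19, had means of 1.94 and 3.86 CPM in WT and 1.38 and 2.56 CPM in MIDY (edgeR adjusted p = 0.675 and 0.311). Among 7 kidney markers UMOD and AQP2 had no reads, and the 7 summed to at most 0.345 CPM in any library. Of the 8 pancreas and gut markers VIL1 and CPA1 held most reads, and the list summed to 6.35 to 11.3 CPM in WT and 3.24 to 8.29 CPM in MIDY.

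Summed markers of T and NK cells and of neutrophils did not overlap between the groups, while those of the other cell types did. The 9 T and NK cell markers summed to 18.6 to 34.5 CPM in WT and 12.2 to 15.8 CPM in MIDY, and the 7 neutrophil markers to 6.78 to 12 and 4.72 to 6.30 CPM, both lower in MIDY. Of single tested genes, 6.35% did not overlap in either direction. B and plasma cell markers summed to 22.6 to 55.1 CPM in WT and 15.5 to 22.8 CPM in MIDY, overlapping only through WT replicate 5 and MIDY replicate 4. Stellate cell and fibroblast markers summed to 535 to 793 and 466 to 566 CPM, endothelial markers to 792 to 936 and 805 to 887 CPM, macrophage markers to 880 to 1218 and 787 to 1048 CPM, and erythroid markers to 69.3 to 1506 and 163 to 540 CPM, all overlapping. The stellate overlap came from WT replicate 1 alone. At an unadjusted p below 0.05, 6 of 11 tested stellate, 3 of 4 B and plasma and 3 of 7 T and NK cell markers were lower. The counts in either direction were 4 of 9 endothelial, 4 of 9 macrophage, 1 of 3 neutrophil and 0 of 5 erythroid markers, and 2277 of all 14100 genes. In these lists CD2 of T cells, COL1A2 of fibroblasts and EMCN of endothelium were called lower (at -0.90, -0.81 and -0.74 log2; edgeR adjusted p = 0.0377, 0.0434 and 0.0273), where 0.355% of all tested genes were called lower. Of the 4 endothelial markers at an unadjusted p below 0.05, EMCN, PECAM1 and TEK were lower and STAB2 was higher. PECAM1, TEK and STAB2 had -0.24, -0.24 and 0.38 log2 and were not called (edgeR adjusted p = 0.271, 0.258 and 0.144). KDR and VWF had 0.00 and -0.02 log2. MARCO, a scavenger receptor of macrophages, was also higher, with means of 10.1 CPM in WT and 19.8 CPM in MIDY without overlap. It was not called by edgeR (0.98 ± 0.29 log2, SE; adjusted p = 0.138). The macrophage list as a whole had a median log2 fold change of -0.21. Its member CD163 was lower in MIDY without overlap, at 80.5 to 89.5 CPM in WT and 71.4 to 75.6 CPM in MIDY (edgeR adjusted p = 0.239). CD2 kept its call without WT replicate 1 or WT replicate 5, COL1A2 without MIDY replicate 4 or WT replicate 1, and EMCN when MIDY replicate 4, WT replicate 1 or WT replicate 3 was left out. Each of them lost it without any other single library. The part of these cells in the levels of the 3 genes was not tested.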

How the data were processed

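RNA was sequenced from 9 pig livers, 4 MIDY and 5 WT by the genotype label, numbered in accession order. Libraries came from ribosomally depleted total RNA (Trizol, Nugen Encore Complete), per the labels' protocols. STAR, HTSeq, DESeq2 and Sscrofa11.1 are named in the submitters' processing notes, with no versions; annotation release and strand setting were not used here. The authors' deposited table holds unnormalized read counts by gene symbol, with 0 rows naming no gene and 0 unused columns.

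Counts were fitted with edgeR 4.0.16 in R 4.3.3 (filterByExpr by group, TMM, robust quasi-likelihood, two-sided, Benjamini-Hochberg over all genes tested), which kept 99.9% of counts. The SE is the fold change over the square root of F. Log2 CPM used a prior count of 2. DESeq2 1.42.0, limma 3.58.1 (voom with sample weights) and sva 3.50.0 served as alternatives. The fit was tested on simulated data. All 29837 symbols matched RefSeq's Sscrofa11.1 gene table, the source of positions.

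The 3 genes, the lists and the tests were chosen with earlier results of these data known. Besides the 3, named genes are TFCP2L1's family, the paralogs, the nearest tested neighbours, list members that were called or had the 4 smallest p, the 5 genes most alike, and the 2 ranked on each side. Other list members and markers were named to show a pathway's core, some after their values were seen. Genes' lengths were not used here, so levels are not compared between genes as amounts per length, and no sequence was analysed. Some results, gene lists among them, are not reported here.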

Additional observations from a re-analysis of the deposited data

Results flagged for a closer look

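In 16 groups of libraries, 4 MIDY or 5 WT for each of 8 genes (the 3 and their tested relatives TFCP2, UBP1, GRHL2, GRHL3 and RHPN2), 3 held a library far from the others by Dixon's criterion. For normally distributed values chance meets it in about 1 group in 20. The criterion was applied to CPM without a log scale, and all 3 flagged libraries were the highest of their group. That rate may therefore not hold here, and no excess is claimed. TFCP2L1 in MIDY replicate 2 was at 15.2 CPM, with the next MIDY library at 4.43 CPM. KIAA1211 in WT replicate 4 was at 1.07 CPM, with the next WT library at 0.417 CPM; without it the log2 fold change of KIAA1211 was 3.36 ± 0.42 (SE). GRHL2 in MIDY replicate 4 was at 1.68 CPM, with the next MIDY library at 1.05 CPM; without it the log2 fold change of GRHL2 was -0.89 ± 0.45 (SE; edgeR adjusted p = 0.350).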

How the results depend on the processing

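Over 18 alternatives the log2 fold change of KIAA1211 and of RHPN1 moved by less than the spread between replicates, and that of TFCP2L1 did so in 17, the exception being 1.65 without MIDY replicate 2 (2.73 at most with 1 library left out). With 1 library left out, 34 to 152 genes were called higher and 4 to 107 lower. DESeq2 called 355 higher and 284 lower, limma voom 81 lower and a fit with 1 surrogate variable 79 lower; without WT replicates 1 and 2 together 42 were higher and 24 lower. With 1 library left out, genes called lower were 0 to 2 for actin capping and for stellate markers, 0 to 1 for biliary, endothelial, T and NK cell, and pancreas and gut markers, and genes called higher 0 to 1 for macrophage markers and the partners of TFCP2L1. Total counts alone gave 1 lower for actin capping and 0 for stellate and T and NK cell markers. DESeq2 gave 3 lower for stellate and 1 for neutrophil markers, and 1 higher for macrophage markers and for neighbouring genes. Limma voom gave 2 lower for stellate and 0 for T and NK cell markers. Without WT replicates 1 and 2 together, 1 collecting duct gene was called higher, SCNN1B. Its levels in those 2 libraries lay within its MIDY range, so leaving them out removed the overlap, and the call is no support for a difference. In the same fit 0 partners of TFCP2L1 were called higher, and 1 actin capping gene and 0 stellate, endothelial and T and NK cell markers were lower. The causes were not tested. No paired analysis was possible because the labels give no replicate numbers shared by the groups. Depth limits precision, with 4 to 17 reads of KIAA1211, 11 to 33 of TFCP2L1 and 8 to 18 of RHPN1 in a WT library.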
